A study of Mus musculus with 2 samples.

Results

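The cytochrome P450 genes, chosen as every gene whose symbol begins with Cyp and a digit, made up 38 of the 2788 genes listed in 2 tables of cluster markers from single-cell RNA sequencing of mouse liver cells. They belonged to 19 subfamilies, and the GENCODE M21 annotation of GRCm38 holds 100 protein-coding Cyp genes. Of the 38 genes, 25 stood in both tables. Cyp2c68, Cyp2j6, Cyp2u1, Cyp39a1, Cyp4f13 and Cyp4f14 stood only in the table of hepatocytes, and Cyp26b1, Cyp2a5, Cyp2c38, Cyp2c39, Cyp2e1, Cyp4b1 and Cyp4f18 only in the table of all cells.

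Hepatocytes were isolated by enzymatic perfusion from wild type BALB/c mice that had received PBS or rIL-33 (0.5 µg, intraperitoneally, once a day for 5 days), with 1 droplet-based 10x library per condition. The study describes young adult male mice that were fasted in both conditions, and no sort preceded the libraries. Both tables pool the cells of the 2 libraries, so PBS and rIL-33 could not be set against each other, and neither the number of UMIs (unique transcript molecules) per cell nor the number of animals behind a value was analysed here. For a gene and a cluster, each row gives the detected share, the percentage of cells in which the gene has a value above 0, in that cluster and in reference cells. The reference cells were the other hepatocytes in the hepatocyte table (5 clusters, 1609 genes) and all other cells in the second table (12 clusters, 1755 genes). A gene is listed for a cluster when its mean there was above that of the reference and passed the authors' limits. Its share of cells can still be lower than in the reference. Every row had a share of at least 25% in the cluster or the reference, and genes missing from a table may still be expressed. There were no replicates, the clusters were made from the same cells, and the values below are descriptions without a test or an interval.

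Cytochrome P450 enzymes are haem proteins of the endoplasmic reticulum or the mitochondria that insert an oxygen atom into drugs, steroids, fatty acids and bile acid precursors, with electrons passed on from P450 oxidoreductase or ferredoxin. Hepatocytes are their main site, and many members are known to be unevenly spread along the liver lobule: Cyp2e1 and Cyp1a2 around the central vein, Cyp2f2 around the portal vein. Names with a shared number and letter mark a subfamily, whose genes often lie side by side as near-identical copies.

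The genes lay in such arrays in GRCm38. The 8 listed Cyp2c genes, of 15 annotated, lay on chromosome 19 between 39269405 and 40187333. The 4 Cyp2d genes, of 8, lay on chromosome 15 between 82370527 and 82794294, and the 3 Cyp4a genes, of 8, on chromosome 4 between 115299046 and 115533649. Cyp3a11 (chromosome 5, 145854426 to 145879964) and Cyp3a25 (145977194 to 146009618) lay close together, with Cyp3a13 apart at 137892932 to 137921619. Cyp8b1, on chromosome 9 from 121914356 to 121916305, had a single exon (1). For 14 of the 38 genes another Cyp gene was at least 90% identical over the coding sequence. The closest pairs were Cyp4a12a with Cyp4a12b (98.5%), Cyp2a5 with Cyp2a4 (98.4%), Cyp2c67 with Cyp2c69 (97.7%), Cyp3a25 with Cyp3a59 (97.5%) and Cyp4a10 with Cyp4a32 (97.2%). Values of those 14 genes are uncertain as to which copy the reads came from. They also include Cyp2a12, Cyp2c38, Cyp2c39, Cyp2c50, Cyp2c54, Cyp2c68, Cyp2d9, Cyp2d10 and Cyp3a11.

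Promoters from RefSeq (GRCm38.p6, 250 bases before the start site) were matched for 30 of the 38 genes. The letters CAAAGTCCA are the core of the element bound by HNF4, a nuclear receptor of hepatocytes. They stood in 5 of the 30 (16.7%) and in 0.451% of the promoters of all 27025 genes of the RefSeq table. Here and for the patterns below, the rate among other genes of the marker tables was not computed. Whether the Cyp genes differ from other hepatocyte genes in this is therefore not known. All 5 matches were on the strand of the gene: in Cyp8b1, Cyp3a11, Cyp2c70, Cyp2c67 and Cyp2c68. Windows that hold the letters are shown because the motif is shared across subfamilies of different function, a sterol hydroxylase and Cyp2c enzymes. Each is given 5ʹ to 3ʹ on the minus strand, without bases inside the GENCODE gene, with the 9 motif letters in capitals. The Cyp3a11 window is not printed, because its motif lies inside the longest GENCODE transcript. They are chr9:121916306-121916555 for Cyp8b1, chr19:40187334-40187536 for Cyp2c70, chr19:39649052-39649292 for Cyp2c67 and chr19:39741102-39741351 for Cyp2c68.
Cyp8b1: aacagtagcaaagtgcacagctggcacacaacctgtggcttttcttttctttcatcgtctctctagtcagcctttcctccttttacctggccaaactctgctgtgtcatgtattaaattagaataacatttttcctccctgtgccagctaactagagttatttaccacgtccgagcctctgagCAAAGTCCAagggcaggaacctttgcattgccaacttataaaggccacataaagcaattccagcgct
Cyp2c70: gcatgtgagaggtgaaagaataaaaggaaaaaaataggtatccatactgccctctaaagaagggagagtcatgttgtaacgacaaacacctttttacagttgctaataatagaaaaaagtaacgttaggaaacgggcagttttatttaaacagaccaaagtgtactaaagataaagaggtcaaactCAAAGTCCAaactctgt
Cyp2c67: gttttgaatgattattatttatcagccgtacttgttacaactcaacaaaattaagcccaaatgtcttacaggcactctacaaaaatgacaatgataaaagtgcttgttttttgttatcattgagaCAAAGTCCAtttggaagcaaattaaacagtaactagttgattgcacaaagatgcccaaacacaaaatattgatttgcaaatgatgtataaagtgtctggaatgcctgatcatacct
Cyp2c68: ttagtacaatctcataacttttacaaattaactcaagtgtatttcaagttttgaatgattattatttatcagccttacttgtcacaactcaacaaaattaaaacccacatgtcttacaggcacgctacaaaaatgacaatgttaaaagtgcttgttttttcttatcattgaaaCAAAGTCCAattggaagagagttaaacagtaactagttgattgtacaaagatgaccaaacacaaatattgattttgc

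In these windows the motif ran from base 67 to base 59 before the RefSeq start in Cyp8b1, from 64 to 56 in Cyp2c70, from 125 to 117 in Cyp2c67 and from 77 to 69 in Cyp2c68. Cyp2c67 and Cyp2c68 are 97.1% identical over the coding sequence, so their matches are not separate cases. In all, 13 letter patterns were searched on both strands, chosen with the values of the genes known. CAAAGNNCA, which includes the HNF4 core, stood in 12 of 30 promoters (40%; all genes 6.29%), and TATAAA in 15 (50%; all genes 14.3%). The nuclear receptor half-site AGGTCA stood in 7 (23.3%; all genes 15.8%), GTTAAT, a part of the HNF1 element, in 4 (13.3%; 7.49%) and TGTTCT, a part of the glucocorticoid element, in 8 (26.7%; 18.2%). CCAAT stood in 13 (43.3%; 37.5%) and TTNNGNAA, a loose C/EBP pattern, also in 13 (43.3%; 40.3%). A direct repeat of AGGNCA with 1 free base between the copies stood in 2, Cyp2d9 and Cyp2d10 (6.67%; 0.400%). Cyp2d9 and Cyp2d10 are 92.5% identical over the coding sequence, so their matches are not separate cases either. These same 2 promoters held its looser forms, with the first base free (NGGNCA, 0.810% of all genes) or with AGNNCA as the second copy (0.921%). AGGTCA followed after 4 free bases by AGNTCA (0.0407%) and GTTAAT followed after 1 free base by ATTAAC (0.0111%) stood in 0 of the 30. Several of these patterns overlap one another.

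In the hepatocyte table, the Cyp genes were listed for the clusters the authors named Hepatocyte4 and Hepatocyte5. Of the 31 Cyp genes of that table, 24 (77.4%) were listed for Hepatocyte4 and 30 (96.8%) for Hepatocyte5, whereas 54.7% and 54.3% of all 1609 genes were. None of the 31 was listed for Hepatocyte1, Hepatocyte2 or Hepatocyte3, for which 10.6%, 3.48% and 7.64% of all genes were listed. Both Hepatocyte4 and Hepatocyte5 listed 23 Cyp genes (74.2% of 31), against 430 of all 1609 genes (26.7%). By the balance of shares between the rows of each gene, Hepatocyte4 held 18.1% of the hepatocytes and Hepatocyte5 held 1.47%, while Hepatocyte1, Hepatocyte2 and Hepatocyte3 held 55.6%, 14.9% and 10.1%.

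The detected share was higher in the cluster than in the other hepatocytes for all 24 Cyp genes of Hepatocyte4 and all 30 of Hepatocyte5. The same held for 878 of the 880 genes listed for Hepatocyte4 and 873 of the 874 listed for Hepatocyte5, but for only 8 of 170 in Hepatocyte1. A share also moves with the number of transcripts counted per cell, which is not known for any cluster, so more Cyp transcripts and deeper cells cannot be told apart. The median difference in share of the Cyp genes was 38.2 percentage points in Hepatocyte4 (19.3 to 55.5) and 51.8 in Hepatocyte5 (16.0 to 69.7). Over all listed genes the medians were 33.1 and 43.0 points. At least 25 points separated cluster and reference for 20 of the 24 Cyp genes in Hepatocyte4 (83.3%; all listed genes 77.4%) and for 29 of the 30 in Hepatocyte5 (96.7%; all listed genes 90%). By this measure the Cyp genes were near the background of all listed genes.

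**Figure D1:**
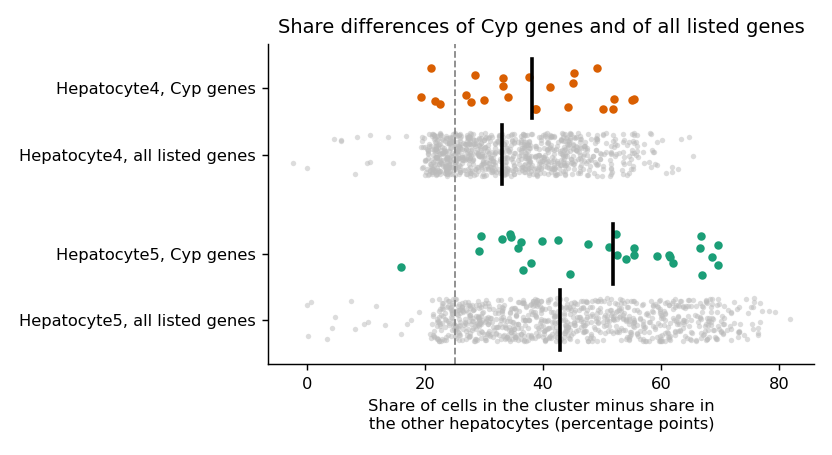
Detected share (cells with a value above 0) in a cluster minus that in the other hepatocytes (percentage points, horizontal), for all genes listed for Hepatocyte4 or Hepatocyte5 (grey) and for the Cyp genes among them (coloured); each point is a gene, black lines are medians, the dashed line is at 25 points and the vertical scatter has no meaning. The Cyp genes lie within the range of all listed genes, with medians of 38.2 and 51.8 points against 33.1 and 43.0.

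For the 23 genes listed for both clusters, the share in the remaining hepatocytes, Hepatocyte1 to Hepatocyte3 pooled, was computed from the same balance. It had a median of 13.9% (3.60 to 77.8%), beside medians of 62.7% in Hepatocyte4 and 80.8% in Hepatocyte5. None of the 23 genes was at 0 in those cells. The genes were chosen as listed for both clusters, so lower shares in the remaining cells largely follow from that choice. The same median over all genes listed for both was not computed.

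**Figure D2:**
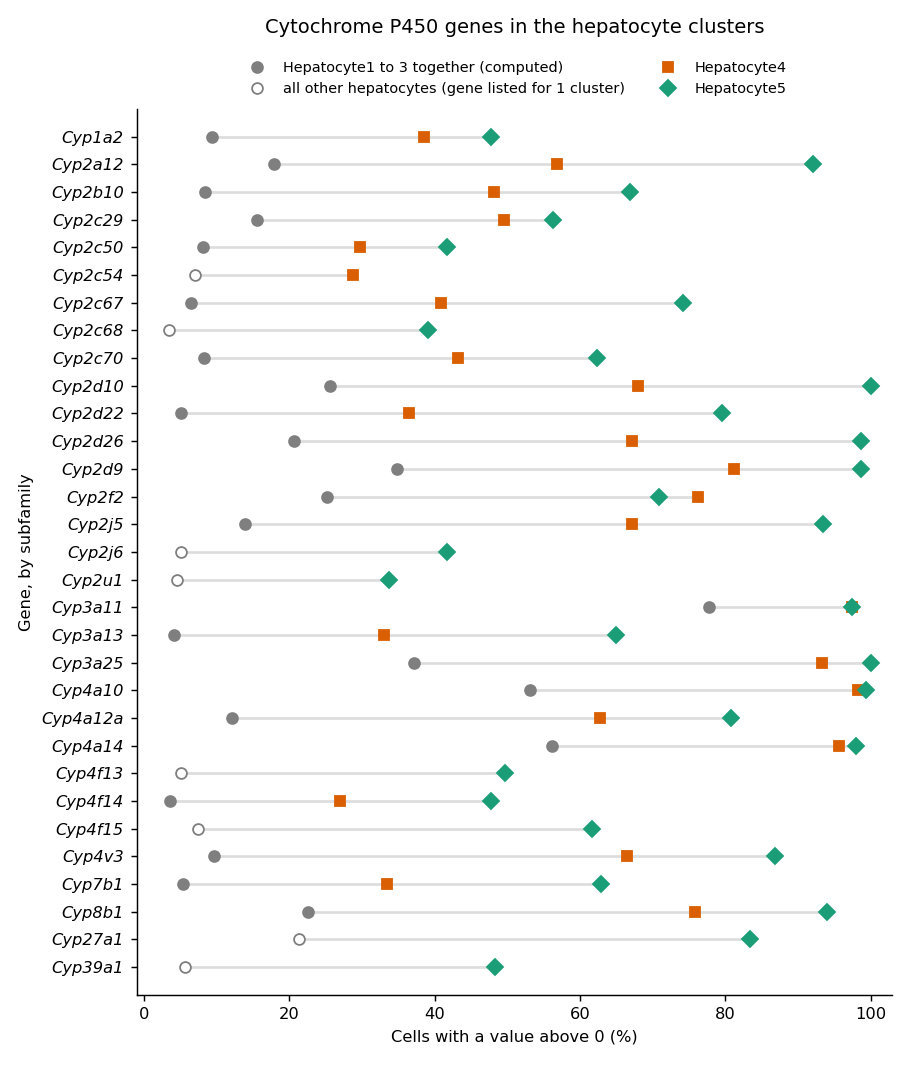
Detected share of cells (%, horizontal) for the 31 Cyp genes of the hepatocyte table, in Hepatocyte4 (squares), Hepatocyte5 (diamonds) and the remaining Hepatocyte1 to Hepatocyte3 cells (filled circles, computed); open circles are all hepatocytes outside the cluster, for genes listed for 1 cluster. For the 23 genes with all 3 values, chosen as listed for both clusters, both clusters lie to the right of the remaining cells. Cyp2f2 is the gene whose square lies clearly to the right of its diamond.

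Among enzymes best known for drugs and foreign compounds, Cyp3a11, the major drug-oxidising enzyme of mouse liver, was the Cyp gene of the hepatocyte table found in the most hepatocytes overall (81.7%). It had a value above 0 in 97.5% of Hepatocyte4, 97.4% of Hepatocyte5 and 77.8% of the remaining cells. Cyp3a25 was found in 93.3% of Hepatocyte4, 100% of Hepatocyte5 and 37.2% of the rest. Cyp3a13 was the rarest of its subfamily outside these clusters, at 33%, 64.9% and 4.09%. The 3 Cyp3a genes therefore ranged from 4.09 to 77.8% in the same remaining cells.

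The Cyp2d subfamily, which oxidises basic drugs and steroids, reached some of the highest shares in Hepatocyte5. Cyp2d10 was found in 68.0% of Hepatocyte4, 100% of Hepatocyte5 and 25.6% of the remaining cells. Cyp2d9 was at 81.2%, 98.7% and 34.8%, and Cyp2d26 at 67.1%, 98.7% and 20.6%. Cyp2d22 stood apart within the array, with 36.5% of Hepatocyte4, 79.5% of Hepatocyte5 and 5.15% of the remaining cells. Its share was thus 7.09 times that of the remaining cells in Hepatocyte4 and 15.4 times in Hepatocyte5. Outside this subfamily, Cyp3a13 had higher ratios, 8.06 and 15.9. In the table of all cells Cyp2d22 was less far from its reference in proportion, with 59.8% of Hepatocyte4 against 20.5% and 85.4% of Hepatocyte5 against 26.1%.

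In the hepatocyte table, Cyp2c genes, which encode drug and arachidonic acid oxidising enzymes, were mostly detected in fewer cells than Cyp2d genes. Cyp2c29 was found in 49.5% of Hepatocyte4, 56.3% of Hepatocyte5 and 15.6% of the remaining cells. Cyp2c67, whose promoter is printed above, was at 40.9%, 74.2% and 6.47%. Cyp2c70, which makes the muricholic acids typical of mouse bile, was at 43.2%, 62.3% and 8.25%, and Cyp2c50 at 29.8%, 41.7% and 8.21%. Cyp2c54 was the single Cyp gene (1) listed for Hepatocyte4 and not for Hepatocyte5, with 28.8% inside and 7.1% among other hepatocytes. Cyp2c68, of the same array, was listed for Hepatocyte5 alone, with 39.1% against 3.4%. Across the array the median difference was 33.2 points in Hepatocyte4 and 35.7 in Hepatocyte5, each over 5 genes. In the table of all cells, Hepatocyte4 shares ran from 54.7% (Cyp2c67) to 81.0% (Cyp2c70) for Cyp2c genes. They ran from 59.8% (Cyp2d22) to 86.4% (Cyp2d26) for Cyp2d genes, so the difference between these subfamilies depends on the table.

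Cyp1a2, which oxidises caffeine and aromatic amines, was found in 38.5% of Hepatocyte4, 47.7% of Hepatocyte5 and 9.37% of the remaining cells. Cyp2a12, a steroid and bile acid hydroxylase, was at 56.9%, 92.1% and 17.9%. Cyp2b10, the classical target of the xenobiotic receptor CAR, was at 48.2%, 66.9% and 8.36%. The share of Cyp2a12 was 35.2 points higher in Hepatocyte5 than in Hepatocyte4, whereas that of Cyp1a2 was 9.2 points higher. In the table of all cells the direction turned for Cyp1a2, with 55.8% of Hepatocyte4 and 50.3% of Hepatocyte5.

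Of the fatty acid hydroxylases, Cyp4a10 and Cyp4a14, classical targets of the receptor PPARα, were detected in nearly all cells of both clusters. Cyp4a10 was found in 98.2% of Hepatocyte4, 99.3% of Hepatocyte5 and 53.1% of the remaining cells, and Cyp4a14 in 95.6%, 98.0% and 56.1%. Cyp4a12a, which makes a vasoactive arachidonic acid product in male mice, was lower in the remaining cells, at 12.2%, with 62.7% of Hepatocyte4 and 80.8% of Hepatocyte5. Shares this close to 100% leave little room for a difference, so the size of differences for Cyp4a10, Cyp4a14 and Cyp3a11 is limited by the scale.

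Cyp4v3, a fatty acid hydroxylase and the mouse counterpart of a gene mutated in a retinal dystrophy, had the largest difference of the Cyp genes in Hepatocyte4, at 66.5% against 11% of the other hepatocytes (rank 28 of the 880 genes listed). It was found in 86.8% of Hepatocyte5 and 9.62% of the remaining cells. Cyp2j5, an arachidonic acid epoxygenase, had the largest difference in Hepatocyte5, at 93.4% against 23.7% (rank 49 of 874), and was found in 67.1% of Hepatocyte4. Cyp4f14, which degrades leukotrienes, was found in 27.0% of Hepatocyte4, 47.7% of Hepatocyte5 and 3.60% of the remaining cells, the lowest of the 23 computed shares. Cyp4f13 (49.7% against 5.1%), Cyp4f15 (61.6% against 7.5%), Cyp2j6 (41.7% against 5.1%) and Cyp2u1 (33.8% against 4.6%) were listed for Hepatocyte5 alone.

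Genes of bile acid and oxysterol metabolism were detected in the same clusters. Cyp8b1, the sterol 12α-hydroxylase that commits precursors to cholic acid, was found in 75.9% of Hepatocyte4, 94.0% of Hepatocyte5 and 22.6% of the remaining cells. Cyp7b1, an oxysterol hydroxylase, was at 33.4%, 62.9% and 5.35%. Cyp27a1, the mitochondrial enzyme that starts the alternative pathway, was listed for Hepatocyte5 alone, with 83.4% against 21.3% of the other hepatocytes, as was Cyp39a1, another oxysterol hydroxylase, with 48.3% against 5.7%. Cyp7a1, the rate-limiting enzyme of the classical pathway, was listed in neither table.

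A gene listed for Hepatocyte5 alone could still be common in Hepatocyte4, so an upper limit was computed by placing every positive reference cell in Hepatocyte4. The limit was 18.5% for Cyp2c68, 25% for Cyp2u1, 27.7% for Cyp2j6, 27.7% for Cyp4f13, 31.0% for Cyp39a1 and 40.8% for Cyp4f15, below the share in Hepatocyte5 in each of these 6 genes. For Cyp27a1 it reached 100% and gave no limit. All limits use shares of the hepatocyte table. The genes were chosen as listed for Hepatocyte5 and not for Hepatocyte4, which by itself favours low limits. The limit was not computed for the other genes listed for Hepatocyte5 alone. Cyp4f15 was listed for both clusters in the table of all cells, with 70.6% of Hepatocyte4 and 70.2% of Hepatocyte5, so its order rests on the hepatocyte table.

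Between the clusters, the share was higher in Hepatocyte5 than in Hepatocyte4 for 21 of the 23 Cyp genes (91.3%; all genes listed for both 98.8%). Only 5 of the 430 genes listed for both were not higher in Hepatocyte5, and 2 of them were Cyp genes. The others were Alb (100% in both), Serpina3k (100% in both) and Cps1 (99.0% in Hepatocyte4 and 98.0% in Hepatocyte5), which like Cyp3a11 were at or near 100%. Cyp3a11 differed by 0.1 points, the rounding step of the table. In the table of all cells, 18 of the 22 Cyp genes listed for both were higher in Hepatocyte5 (81.8%; all genes 95.4%), and the others were Cyp2f2, Cyp3a11, Cyp1a2 and Cyp4f15. Cyp2f2, a naphthalene-oxidising enzyme known as a periportal marker (chromosome 7, 27119909 to 27133660), was found in 76.2% of Hepatocyte4, 70.9% of Hepatocyte5 and 25.2% of the remaining cells. Its change from Hepatocyte4 to Hepatocyte5 of -5.3 points was the lowest of all 430 genes (-10.9 points in the table of all cells), and its closest Cyp gene, Cyp2g1, was 64.4% identical. The deposited tables hold no cell numbers, and no counting error is given for this difference, which rests on the smallest hepatocyte cluster.

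**Figure D3:**
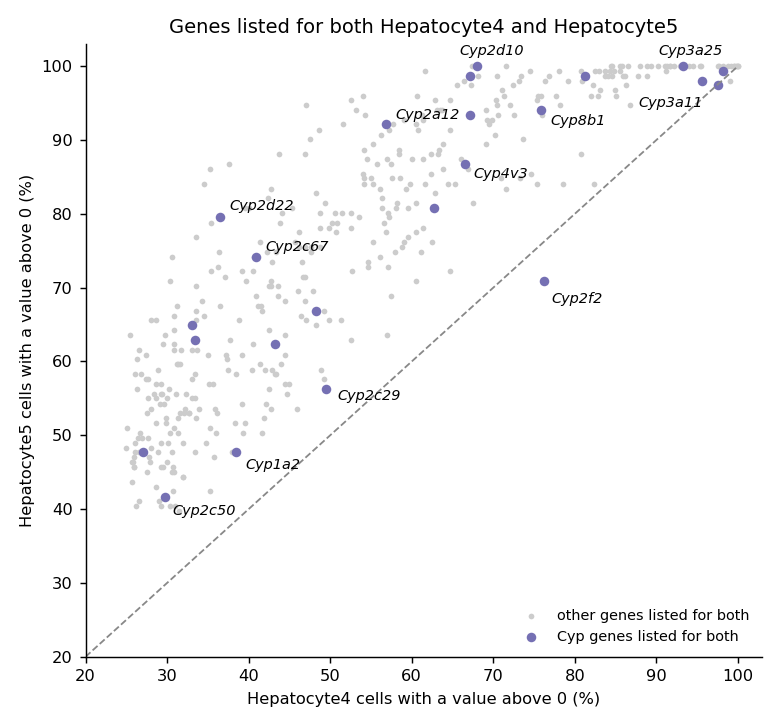
Detected share of cells in Hepatocyte4 (%, horizontal) and Hepatocyte5 (%, vertical) for the 430 genes listed for both, with the 23 Cyp genes coloured and the dashed line marking equal shares. Cyp2f2 lies well below the line at 76.2 and 70.9%, and Cyp2d22 lies far above it at 36.5 and 79.5%.

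The difference between the clusters varied widely among the Cyp genes, with a median of 18.7 points over the 23 genes and 21.9 over all 430. In the hepatocyte table it was largest for Cyp2d22 (43.0 points, rank 422 from the lowest), Cyp2a12 (35.2) and Cyp2c67 (33.3). In the table of all cells the order changed, with 38.4 points for Cyp3a13, 30 for Cyp2a12, 26.1 for Cyp2c67 and 25.6 for Cyp2d22. Near the lower end of the hepatocyte table stood Cyp4a10 (1.1 points, rank 11), Cyp4a14 (2.4, rank 16), Cyp3a25 (6.7, rank 24) and Cyp2c29 (6.8, rank 25). Of these, Cyp2c29 was far from 100% in both clusters, and so was Cyp1a2 (9.2, rank 44), another gene known as pericentral, but both values depend on the table. In the table of all cells the difference was 15.8 points for Cyp2c29 and -5.5 for Cyp1a2. Of 10 Cyp genes known as pericentral, 6 stood in the hepatocyte table. Of these 6, 5 were listed for Hepatocyte4 and 5 for Hepatocyte5, beside 54.7% and 54.3% of all genes of the table. Their median difference from the other hepatocytes was 21.7 points in Hepatocyte4 (all listed genes 33.1) and 33 in Hepatocyte5 (all listed genes 43.0). Periportal Cyp2f2 differed by 50.2 and 36.3 points. Against all other cells the pericentral median in Hepatocyte4 was 38.7 points over 5 genes and that in Hepatocyte5 27.2 over 7, beside 53.1 and 34.0 for Cyp2f2. Cyp2c37 of that list was listed in neither table, and Cyp2e1 and Cyp2a5 were not listed in the hepatocyte table.

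Of 8 genes for electron carriers and partner proteins of P450 enzymes, 5 stood in the hepatocyte table. Of these 5, 3 were listed for Hepatocyte4 and 2 for Hepatocyte5, beside 54.7% and 54.3% of all genes of the table. Por, the oxidoreductase that feeds microsomal P450 enzymes, was found in 70.5% of Hepatocyte4 against 23.5%, and in 98.7% of Hepatocyte5 against 31.1%. Pgrmc1, a haem-binding partner, was at 86.3% against 43.0% and 97.4% against 50.2%, and Cyb5b, a cytochrome b5 of the mitochondrial outer membrane, was listed for Hepatocyte4 (31.9% against 7.6%). Fdx1, the mitochondrial ferredoxin, was listed for Hepatocyte1 with a lower share than the reference (25% against 51.7%), and Cyb5a, the microsomal cytochrome b5, for Hepatocyte3 (88.4% against 87.0%). Of 12 genes of haem synthesis and breakdown, 4 stood in the table: Cpox (69.5% against 17.2%) and Fech (45.2% against 9.2%) for Hepatocyte4, and Alas1 (26.3% against 23.8%) and Blvrb (33.5% against 24.3%) for Hepatocyte3. Of these 4, 2 were listed for Hepatocyte4 and none for Hepatocyte5, beside 54.7% and 54.3% of all genes of the table.

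Of 17 transcription factors and nuclear receptors known to act on Cyp genes, 7 stood in the hepatocyte table. Of these 7, 6 were listed for Hepatocyte4 and 2 for Hepatocyte5, beside 54.7% and 54.3% of all genes of the table, and the same shares stand beside the counts that follow. Hnf4a, the factor whose core letters are printed above, was listed for Hepatocyte4 (65.9% against 19.7%), as were Cebpa (48.8% against 11.8%), Nr3c1, Nr5a2 and Foxa2. Ppara, the receptor for fatty acids, was listed for both, with 36.1% of Hepatocyte4 against 8.3% and 53.0% of Hepatocyte5 against 12.7%. Nr1i3, which encodes CAR, was listed for Hepatocyte5 alone (70.9% against 21.6%). Of 9 further bile acid synthesis genes, 7 stood in the table, 5 of them for Hepatocyte4 and 2 for Hepatocyte5. Slc27a5, which activates bile acids, was found in 54% of Hepatocyte4 against 13.2% and 96.0% of Hepatocyte5 against 19.5%, and Hsd3b7 in 62.5% against 13.6% and 76.2% against 21.7%. Of 14 other phase I enzymes, 4 stood in the table: Aldh1a1, Fmo5 and Ephx1 for Hepatocyte4, Ephx1 also for Hepatocyte5 (66.9% against 9.6%), and Ephx2 for Hepatocyte3 with near-equal shares (58.1% against 58.6%).

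In the table of all cells, 32 Cyp genes were listed, again mainly for Hepatocyte4 (23 genes, 71.9%; all genes 25.2%) and Hepatocyte5 (28 genes, 87.5%; all genes 24.7%). Hepatocyte1 had 3 (9.38%; all genes 1.77%). Cyp2e1, the ethanol-oxidising enzyme, was found in 95.4% of Hepatocyte1 against 89.6% of all other cells and in 94.0% of Hepatocyte5 against 92.5%, so its shares were high both inside and outside the clusters. Cyp3a11 (77.8% against 78.1%) and Cyp2d9 (31.8% against 54.8%) were listed for Hepatocyte1 with lower shares inside the cluster than outside. Cyp2a5, a nicotine and coumarin oxidising enzyme, was listed for Hepatocyte5 (51.0% against 28.4%), and so were Cyp2c38 (72.2% against 40.3%) and Cyp2c39 (81.5% against 54.2%).

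For cells other than hepatocytes 3 Cyp genes were listed, and none of these 3 was listed for a hepatocyte cluster. The share of all genes listed for any such cluster, or for both kinds of cluster, was not computed. Neither the count nor the lack of overlap is therefore read as a result about the Cyp genes. Cyp4f18, which inactivates leukotriene B4 in neutrophils, was found in 43.0% of neutrophils against 2.4% of all other cells, and in 26.7% of B cells against 2.7%. It was the single Cyp gene (1) of 226 genes listed for neutrophils (12.9% of all genes) and of 511 listed for B cells (29.1%). In the cluster named hepatic stellate cells (HSC) and fibroblasts, Cyp26b1, which degrades retinoic acid, was found in 57.9% against 7.3%, and Cyp4b1, an enzyme best known from lung, in 52.6% against 0.2%. These 2 were among 535 genes listed for that cluster (30.5%). It was the smallest cluster, with 0.171% of all cells, and listed 3 of 4 HSC and fibroblast markers but also 4 of 5 endothelial markers, whose part in the Cyp26b1 and Cyp4b1 values was not tested. No Cyp gene was listed for Kupffer cells, T cells, endothelial cells or red blood cells. The share of all genes listed for these clusters was not computed, so this absence is not read as a result about them.

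The cluster names were checked against marker genes. The clusters named Kupffer cell, neutrophil, B cell and T cell listed 6 of 6, 4 of 5, 3 of 4 and 4 of 4 of their markers, and the endothelial cluster listed 2 of 5. None of the 4 haemoglobin genes was listed for the red blood cell cluster, so its name could not be checked. In the hepatocyte table all 5 hepatocyte markers were listed for some cluster, and 0 markers of the 7 other cell types were.

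The 2 tables gave different shares for the same cluster and gene. Over the 46 Cyp rows present in both, the table of all cells was higher by a median of 2.30 points (-4.0 to 51.5), and by at least 5 points in 21 rows (45.7%), while 13 were within 0.1 points. Over all 794 such rows the median was 10.6 points and 502 rows (63.2%) were at least 5 points higher. All 9 Cyp2c rows were higher, by 6.6 to 51.5 points. Cyp2c54 in Hepatocyte4 had 28.8% in the hepatocyte table and 80.3% in the table of all cells, and Cyp2c50 had 29.8% and 75.7%. Cyp2d9, Cyp3a25 and Cyp27a1 were within 0.1 points in every cluster shared by both tables. Cyp7b1 was lower in the table of all cells, at 58.9% against 62.9% of Hepatocyte5.

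**Figure D4:**
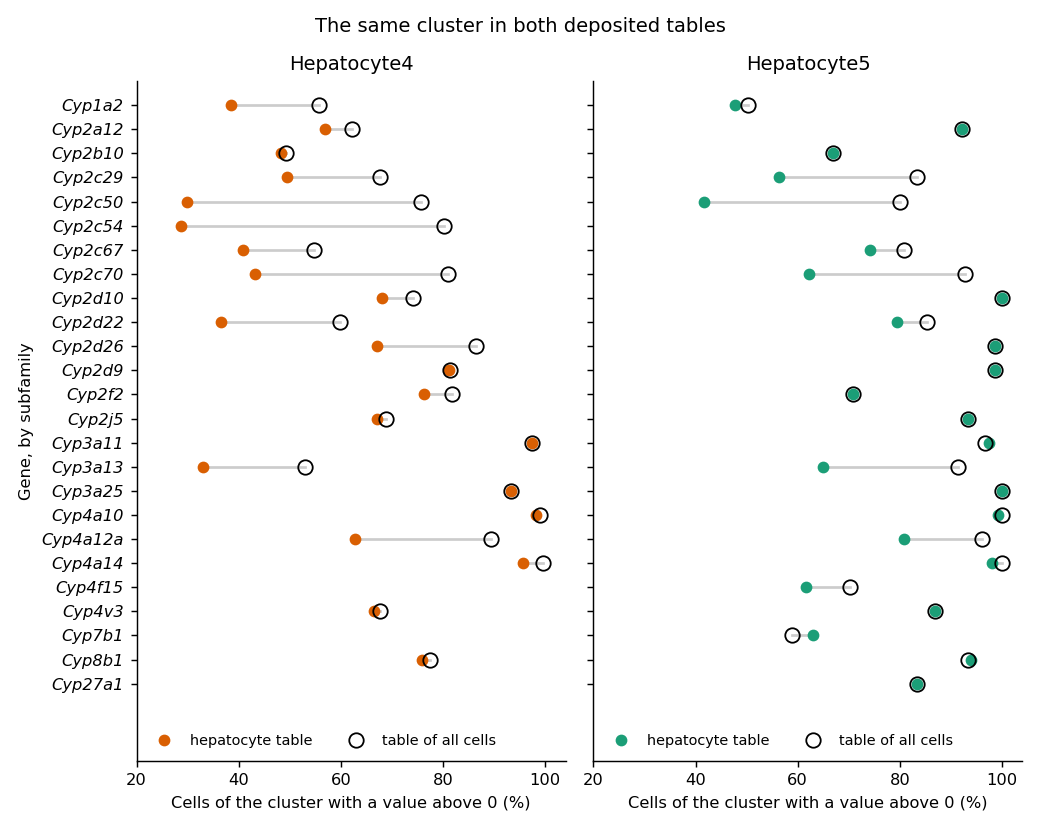
Detected share of cells (%, horizontal) in the hepatocyte table (filled circles) and in the table of all cells (open circles) for the 25 Cyp genes listed for the same cluster in both, in Hepatocyte4 (left) and Hepatocyte5 (right). Cyp2c54, Cyp2c50 and Cyp2c70 are moved furthest to the right in Hepatocyte4, whereas Cyp2d9 and Cyp3a25 coincide.

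Shares of the same counts in the same cells would be equal. Whether the tables differ in their cells or in a correction of their values was not tested. Comparisons between hepatocyte clusters use the hepatocyte table, except where the table of all cells or all other cells are named. Where both tables agreed within 1 point, which held for 5 genes, the share in cells other than hepatocytes could be computed. It was 36.4% for Cyp2d9 and 45.1% for Cyp3a11, but 108% for Cyp27a1, 186% for Cyp4a10 and 192% for Cyp3a25, which no share can be. The level of free hepatocyte RNA in other cells could therefore not be estimated from these tables, and its part in the shares was not tested.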

How the data were processed

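There was 1 hepatocyte library from mice given PBS and 1 from mice given rIL-33, grouped from the sample labels. Per the labels, UMI counting used Cell Ranger and mm10. The authors then filtered cells, scaled counts per cell, took natural logs, clustered and named the cells, and listed markers with Seurat. The 2 deposited tables pool both libraries. The share columns were used: the fractions, computed by the authors, of cells with a value above 0 in a cluster and in its reference, here as percentages. The deposited log2 fold change, p-value and adjusted p-value columns hold the authors' own comparisons and were not used, beyond checking that every fold change was above 0. The tables hold no depth per library and no cell counts, and counting errors are not given. No doublet caller was run. The 7 rows of the hepatocyte table with names stored as dates matched no gene.

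Every Cyp row was kept and named. Relative cluster sizes came from least squares over 486 genes listed for at least 2 hepatocyte clusters, since each row of a gene must give the same share over all hepatocytes. The same balance gave the share in Hepatocyte1 to Hepatocyte3. Tested on simulated hepatocyte clusters with 486 genes, errors were at most 0.0704 points for a size and 0.0608 points for a share. Positions and coding sequence identities came from GENCODE M21 and promoters from RefSeq. The members, gene lists and comparisons were chosen with earlier results of these data known. Alternatives were other thresholds, the table of all cells, other size fits and genes under 90% coding identity. Python 3.11.15, NumPy 2.4.6, pandas 2.3.3, SciPy 1.17.1, Biopython 1.88 and Matplotlib 3.10.9 were used.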

Additional observations from a re-analysis of the deposited data

How the results depend on the processing

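Of 33 alternative values, 14 equalled the value as reported and 11 moved by more than the limit set for them, 0.1 points for a median and 1.5 times for a count. Against all other cells, Hepatocyte1 listed 3 Cyp genes instead of 0, and the median difference in share was 38.7 points in Hepatocyte4 (38.2 as reported) and 42.5 in Hepatocyte5 (51.8 as reported). There Hepatocyte4 listed 23 Cyp genes and Hepatocyte5 listed 28, of which 20 and 24 were at least 25 points higher, and 18 genes had a higher share in Hepatocyte5 than in Hepatocyte4 instead of 21, a comparison added after seeing the data. At a minimum difference of 40 points, 10 Cyp genes passed in Hepatocyte4 instead of 20, and 19 in Hepatocyte5 instead of 29. Limited to genes under 90% identical in coding sequence to any other Cyp gene, a choice made after seeing the data that leaves fewer genes, Hepatocyte4 listed 14 instead of 24, 13 of them at least 25 points higher, Hepatocyte5 listed 20 instead of 30, all 20 of them at least 25 points higher, and the medians were 36.4 and 49.4 points. With reference shares of at most 75%, the medians were 38.7 and 52.4 points. Other size fits moved no computed Hepatocyte1 to Hepatocyte3 share by more than 0.00541 points.

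A limit on protein identity was not run, and coding sequence identity took its place. With 1 library per condition, pooled in both tables, leaving out a library was not possible. No paired analysis was possible because the result comes from no test and each condition has 1 library. The deposited tables hold no cell or UMI counts, and counting errors are not given, which bears most on Hepatocyte5, the smallest hepatocyte cluster.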
